A study of Mus musculus with 8 samples.

Results

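Deubiquitinases are the proteases that remove ubiquitin from proteins, and the genes of 3 of their families were followed here in mouse embryonic stem cells after knockdown of Mkrn1. Members were taken by symbol from the platform annotation: symbols that start with Usp and a digit, with Otud or Otub, or with Uchl, leaving out Usp18, Usp9y and the Usp17 genes. This gave 62 of the 19937 genes on the arrays, 49 with Usp, 10 with Otub or Otud and 3 with Uchl symbols. The label does not hold for all of them. Usp6nl encodes a GTPase-activating protein named for its likeness to another gene, and Usp46os2 is an RNA from the strand opposite Usp46. Usp39, Usp50, Usp53 and Usp54 were grouped here as without known protease activity. That heading may not hold for each of them, and the activity of each was not tested. Usp49 and Uchl4 were seen only by probe sets that also carry another gene's symbol and are not members.

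Ubiquitin is joined to a target protein by an activating, a conjugating and a ligating enzyme, and the chain can mark the protein for the proteasome or change its place or partners. Deubiquitinases cut that bond, trim or edit chains and return free ubiquitin. The ubiquitin-specific proteases (Usp) are the largest family, the ovarian tumour proteases (Otub, Otud) often prefer 1 type of chain, and the ubiquitin C-terminal hydrolases (Uchl) act mainly on small adducts. In stem cells several of them act on histones, cell cycle regulators and signalling receptors.

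Total RNA was measured on 8 Affymetrix arrays of R1 cells, a male line from the inner cell mass of 129X1 x 129S1 blastocysts. In 4 samples (shMKRN1) the cells had been transfected with 2 µg of pLKO.1 plasmid with a hairpin against MKRN1, a RING-type ubiquitin ligase with RNA-binding zinc fingers, and in 4 control samples (shGFP) with the same amount of pLKO.1 plasmid with a hairpin against GFP. All 8 populations were grown with LIF and 15% serum, carried a transient plasmid, passed through 4 days of puromycin at 2 µg/mL and were lysed 6 days after transfection. Each hairpin is 1 sequence, so an effect of the Mkrn1 knockdown and any other effect of that hairpin cannot be told apart. The target stretch of the knockdown hairpin, shown because every comparison below rests on it, reads 5′ to 3′ as the labels give it:

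shMKRN1: gcgagatgttgcttatgcttt

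Arrays are named by the numbers in their titles, 1, 3, 5 and 7 for shGFP and 2, 4, 6 and 8 for shMKRN1. Whether each sample had its own transfection is not in the labels. The p-values therefore set each group difference against the spread among these samples only, and that spread may be technical. The number of arrays limits the precision. Values are log2 expression values made with RMA, and a difference is shMKRN1 minus shGFP on that scale. Mkrn1 stood at 10.45, 10.45, 10.51 and 10.34 in shGFP and at 9.81, 9.81, 9.86 and 9.88 in shMKRN1, which left 66.2% of the control level (95% confidence interval 61% to 71.7%; exact two-sided permutation p = 0.0286, the smallest possible). The embryonic stem cell markers matched the label, with a mean level over 11 genes of 11.41 to 11.51 in shGFP and 11.43 to 11.51 in shMKRN1. Of these, Nanog rose (0.25; limma adjusted p = 0.0256) and none fell. A gene is called where its limma p, adjusted over all 19937 genes by Benjamini-Hochberg, is under 0.05.

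Of the 62 genes, 8 rose in shMKRN1 and none fell. They were Usp26, Usp44, Usp11, Usp3, Otud6a, Otub2, Uchl1 and Usp47. Usp26 rose 2.78-fold and the other 7 by 1.18-fold to 1.39-fold. The call share was 12.9% among the 62 and 4.49% over all genes tested, or 3.66% counting increases and 0.838% counting decreases. The median difference of the 62 was 0.05, against 0.01 over all genes, and 0.05 without Usp26. Both contrasts depended on the level of the genes compared. Among genes above the median level, 9 of 53 members were called (17%, 8 higher and 1 lower), beside 16% of all such genes, and the medians were 0.05 and 0.04. Means were higher in shMKRN1 for 42 of the 62 (67.7%, against 52.8% of all genes). At an unadjusted p under 0.05, 13 were higher (21%, against 13.7% of all genes) and 2 lower (3.23%, against 5.78%). Neither of these comparisons was repeated among genes above the median level. Single arrays moved the count of 8. Leaving out shGFP 1 or shMKRN1 4 gave 5 calls, beside 2.53% and 1.94% of all genes, and leaving out shMKRN1 2 or shMKRN1 6 gave 4, beside 1.77% and 1.55%. Without both shGFP 7 and shMKRN1 8, all 8 kept their calls, beside 4.6% of all genes. These arrays were picked because they stood apart from their groups in the values of the 62 genes.

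**Figure D1:**
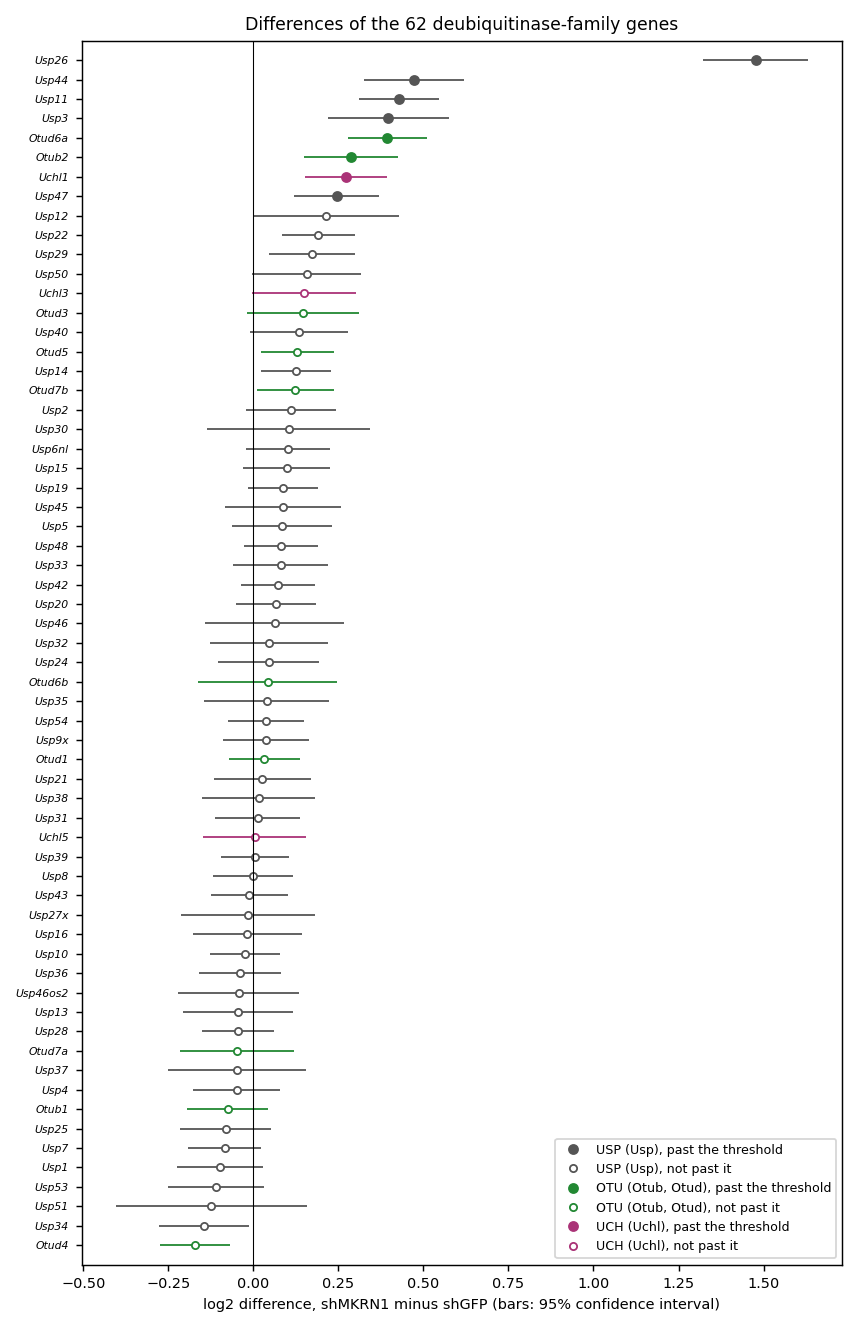
Log2 difference (shMKRN1 minus shGFP) of each of the 62 genes with its 95% confidence interval; filled points passed the limma test and colours give the family. Usp26 lies apart at 1.48, the 7 other called genes lie between 0.24 and 0.47, and the 54 genes without a call lie between -0.17 and 0.21.

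Usp26 is an X-linked gene known for expression in testis, and its protein deubiquitinates among others the androgen receptor. It stood at 8.62, 8.42, 8.72 and 8.57 in shGFP arrays 1, 3, 5 and 7 and at 10.08, 10.11, 10.07 and 9.96 in shMKRN1 arrays 2, 4, 6 and 8. Every shMKRN1 array lay above every shGFP array, and both groups lay well above 6.50, the level under which 95% of 1194 olfactory and vomeronasal receptor genes, silent in these cells, were found. The transcript was therefore measured in the control cells too. The difference was 1.48 (SE 0.069; limma adjusted p = 2.19e-05), with a 95% confidence interval of 2.50-fold to 3.10-fold. Leaving out any 1 array moved it between 1.42 and 1.52, with adjusted p-values of 7.93e-05 to 0.00041.

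The differences of its relatives were smaller. Usp29 and Usp37 encode the proteases closest to Usp26 in sequence. Usp29, an imprinted gene of the Peg3 domain, stood at 5.75 in shGFP and 5.92 in shMKRN1, in the range of silent receptor genes (difference 0.17, SE 0.057; limma adjusted p = 0.125). Usp37, which acts in cell cycle entry, had a difference of -0.05 (SE 0.091; adjusted p = 0.836). Its mean was 9.25 in shGFP and 9.21 in shMKRN1, and the groups overlapped.

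Some other germ cell genes also rose. Of 12 germ cell markers, 4 rose (Sohlh2, Hormad1, Dazl and Mael, by 0.64 to 0.93) and none fell. That is 33.3% higher, where 3.66% of all genes rose and 0.838% fell. The markers were listed with earlier results of these data known, and the list was not tested. The mean level over all 12 ran from 7.49 to 7.76 in shGFP and from 7.89 to 8.15 in shMKRN1. The meiotic genes Stra8 and Sycp1 stayed in the range of silent receptor genes. The testis factor gene Taf7l stood at 6.13 in shGFP, in that range, and at 6.71 in shMKRN1, above it (adjusted p = 0.0665), and the germ cell helicase gene Ddx4 differed by -0.07 (adjusted p = 0.782). In RNA of a whole population, more cells of a type and more RNA per cell cannot be told apart, and the part of such cells in the Usp26 difference was not tested. Of 12 fibroblast markers, Pdgfrb and Col1a1 rose (16.7%), none fell, and 3 lay within the silent range (Lum, Postn and S100a4). The mean level of the 12 overlapped between the groups (7.29 to 7.45 in shGFP, 7.32 to 7.51 in shMKRN1). None of 9 primitive endoderm markers passed, and their mean level also overlapped (7.79 to 8.005 and 7.77 to 7.97).

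**Figure D2:**
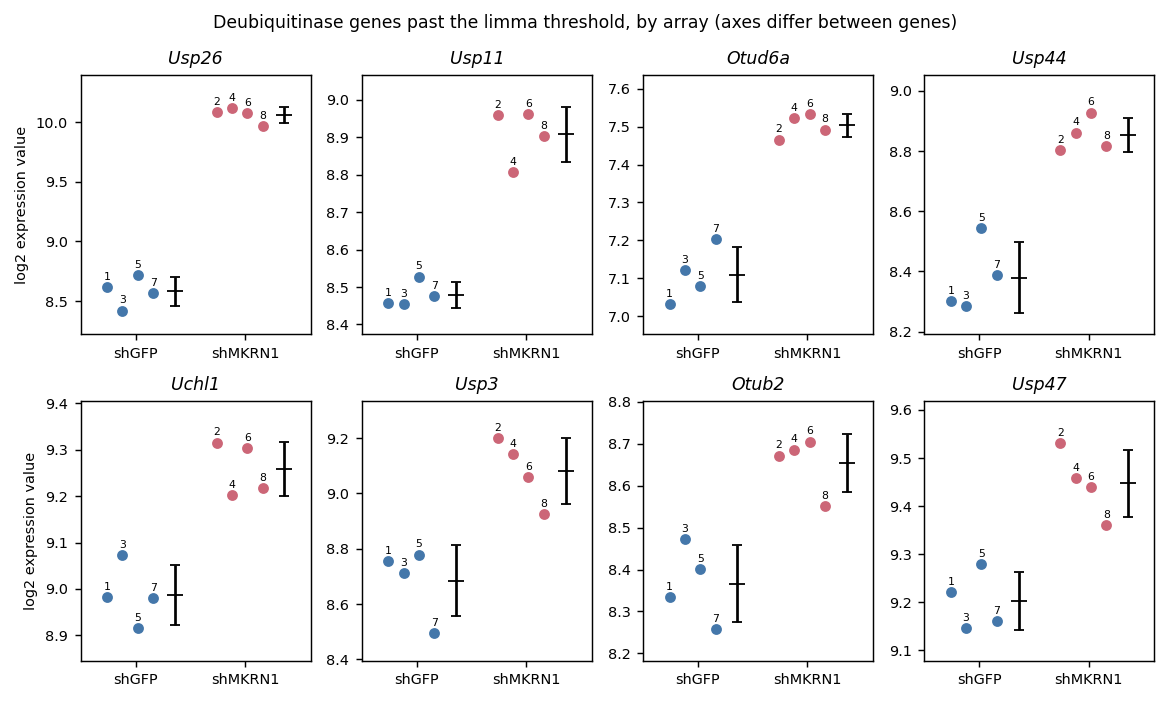
Log2 expression value in each array for the 8 called genes, with array numbers beside the points and the group mean and SD (n = 4) as a bar; the axes differ between genes. For all 8 genes every shMKRN1 array lies above every shGFP array.

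Among genes of histone deubiquitination, Usp44 and Usp3 rose and 9 others of 11 measured did not pass. Usp44 removes ubiquitin from histones and restrains the onset of anaphase. It stood at 8.30, 8.28, 8.54 and 8.39 in shGFP and at 8.80, 8.86, 8.93 and 8.82 in shMKRN1. Array shGFP 5 was the highest control and still lay below the lowest knockdown array. The difference was 0.47 (SE 0.066; limma adjusted p = 0.00513), and the call held without each array in turn.

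Usp3, a protease of histone ubiquitin with a part in the DNA damage response, stood at 8.75, 8.71, 8.78 and 8.50 in shGFP and at 9.20, 9.14, 9.06 and 8.93 in shMKRN1. The groups did not overlap, and shGFP 7 and shMKRN1 8 were the lowest of their groups. The difference was 0.40 (SE 0.080; limma adjusted p = 0.0245). Its call was lost without shMKRN1 2, 4 or 6 or without shGFP 3 (highest adjusted p = 0.0766). Usp22, the protease of the SAGA coactivator complex, fell just short (difference 0.19, SE 0.048; adjusted p = 0.0549), although its groups did not overlap. It passed with quantile normalization (0.0328), among genes above the median level (0.014), with array weights (0.0191) and with trend and robust settings (0.0072). In those settings 5.5%, 16%, 13.8% and 7.77% of all genes tested were called. It did not pass with median centring, the mean of probe sets or every probe set tested. Nor did it pass without shGFP 7 and shMKRN1 8 together, or without any 1 array. The other SAGA-type proteases Usp27x and Usp51 had differences of -0.02 and -0.12. Usp12 and Usp46, which share the cofactor WDR48, had 0.21 (SE 0.096) and 0.06 (SE 0.091). For Usp16 and Usp21, further proteases of histone ubiquitin, the values were -0.02 and 0.03, and for Usp36 and Usp42 they were -0.04 and 0.07.

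Usp11 was the only one of 8 proteases of signalling receptors and effectors past the threshold. It acts on TGF-beta receptor signalling and in DNA repair, and it lies on the X chromosome. It stood at 8.46, 8.45, 8.53 and 8.48 in shGFP and at 8.96, 8.81, 8.96 and 8.90 in shMKRN1. The control arrays were close together, with an SD of 0.034, and all 4 knockdown arrays lay above them. The difference was 0.43 (SE 0.053; limma adjusted p = 0.00288), and its call held without each array in turn. Its relatives Usp4 and Usp15, which also act on TGF-beta signalling, had differences of -0.05 (SE 0.057) and 0.10 (SE 0.058). Usp9x, a protease of SMAD4 and of adhesion proteins, had 0.04 and Usp34, which acts on the WNT regulator axin, -0.14 (SE 0.060; adjusted p = 0.213). For Usp20, Usp25 and Usp33 the values were 0.07, -0.08 and 0.08.

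Usp47 was the only one of 9 genes of DNA repair, cell cycle and p53 or Myc stability past the threshold. Its protein stabilises a DNA polymerase of base excision repair. It stood at 9.22, 9.15, 9.28 and 9.16 in shGFP and at 9.53, 9.46, 9.44 and 9.36 in shMKRN1, without overlap. The difference was 0.24 (SE 0.056; limma adjusted p = 0.0377). This call held in only 2 of the 8 fits that left out 1 array: it was lost without shGFP 1, 3 or 7 and without shMKRN1 2, 4 or 6 (highest adjusted p = 0.123). Usp7, the protease of MDM2 and p53, had a difference of -0.08, Usp10, which acts on p53 and binds G3BP1, -0.02, and Usp1, the protease of the Fanconi anaemia pathway, -0.10. Usp28, which stabilises MYC, had -0.05. The remaining 4, Usp2, Usp24, Usp45 and Usp48, lay between 0.05 and 0.11.

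Of the 10 ovarian tumour proteases, Otud6a and Otub2 rose. Otud6a, an X-linked gene, stood at 7.03, 7.12, 7.08 and 7.20 in shGFP and at 7.47, 7.52, 7.53 and 7.49 in shMKRN1. The knockdown arrays were close together, with an SD of 0.030, and none overlapped the controls. The difference was 0.39 (SE 0.052; limma adjusted p = 0.00432), and the call held without each array in turn. Otud6b, its autosomal relative, had a difference of 0.04 (SE 0.091; adjusted p = 0.859).

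Otub2, a protease with a preference for chains linked through lysine 63, stood at 8.33, 8.47, 8.40 and 8.26 in shGFP and at 8.67, 8.69, 8.70 and 8.55 in shMKRN1. The lowest knockdown array, shMKRN1 8, lay just above the highest control, shGFP 3. The difference was 0.29 (SE 0.062; limma adjusted p = 0.0298). Its call was lost without shGFP 1 or 5 or without shMKRN1 2, 4 or 6 (highest adjusted p = 0.104). Otub1, its relative and an inhibitor of conjugating enzymes, had a difference of -0.08 (SE 0.053).

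Otud4, which acts in the repair of alkylated DNA, had the lowest difference of all 62 genes, -0.17 (SE 0.046; limma adjusted p = 0.0693). It stood at 12.08, 12.08, 12.13 and 12.05 in shGFP and at 11.92, 11.96, 11.91 and 11.87 in shMKRN1. This was the only one of the 62 whose shMKRN1 arrays all lay below the controls (1.61%, against 3.51% of all genes). It passed, as a decrease, among genes above the median level (0.0173), with array weights (0.0203) and with trend and robust settings (0.0056). In those settings 3.11%, 4.13% and 1.63% of all genes tested were called as decreases. It did not pass with quantile normalization, median centring, the mean of probe sets or every probe set tested. Nor did it pass without shGFP 7 and shMKRN1 8 together, or without any 1 array. Otud5, an X-linked regulator of innate immune signalling, had 0.13, and Otud7b, which acts on NF-kB signalling and the cell cycle, 0.12. Otud1, Otud3 and Otud7a had 0.03, 0.15 and -0.05.

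Uchl1, a hydrolase abundant in neurons and spermatogonia, rose among the 3 ubiquitin C-terminal hydrolases. It stood at 8.98, 9.07, 8.92 and 8.98 in shGFP and at 9.32, 9.20, 9.30 and 9.22 in shMKRN1, without overlap. The difference was 0.27 (SE 0.054; limma adjusted p = 0.0235). Its call was lost without shGFP 1 or 5 or without shMKRN1 2 or 6 (highest adjusted p = 0.0875). Uchl3 stood at 10.19 in shGFP and 10.34 in shMKRN1, a difference of 0.15 (SE 0.069, limma adjusted p = 0.269). A further probe set, shared by Uchl3 and its near-identical copy Uchl4, stood at 6.06 in shGFP and 6.17 in shMKRN1. Both values lie in the range of silent receptor genes, so signal over background limits what that probe set shows. Uchl5, which sits on the proteasome and in the INO80 complex, had 0.0044 (SE 0.068).

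No member of the remaining roles passed. Usp14, the protease of the proteasome's regulatory particle, stood at 11.07, 11.07, 11.12 and 11.08 in shGFP and at 11.22, 11.23, 11.23 and 11.16 in shMKRN1. Its groups did not overlap, but the difference was 0.13 (SE 0.046; limma adjusted p = 0.161). It passed with array weights (0.0345) and with trend and robust settings (0.0422), where 13.8% and 7.77% of all genes were called. It did not pass under the other settings tried, nor without any 1 array. Usp5, which takes apart free chains, had 0.08 and its relative Usp13 -0.04. Of 5 genes of membranes and organelles, the endosomal Usp8 and the mitochondrial Usp30 had -0.0011 and 0.10 (SE 0.108), Usp19 of the endoplasmic reticulum 0.09, Usp32 0.05 and Usp6nl 0.10. The 4 genes grouped as without known protease activity lay between -0.11 (Usp53) and 0.16 (Usp50), with the splicing factor gene Usp39 at 0.0038. Usp50 stood at 6.42 in shGFP, in the silent range, and at 6.57 in shMKRN1, just above it. Usp31, Usp35, Usp38, Usp40 and Usp43, given no role here, lay between -0.01 and 0.13, and Usp46os2 at -0.04.

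**Figure D3:**
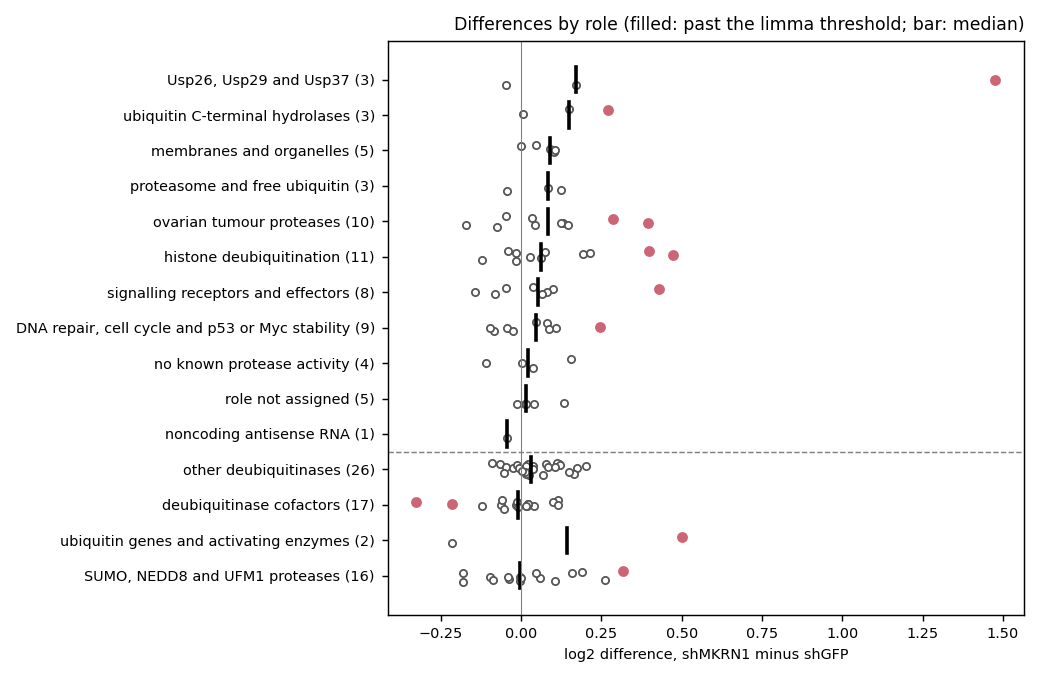
Log2 differences (shMKRN1 minus shGFP) by role, with the number of genes measured in brackets; filled points passed the limma test, bars are medians, and the lists under the dashed line hold no members. The called genes are spread over 6 of the roles, and Usp26 is the only point past 1.

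The 54 genes without a call lay between -0.17 and 0.21, 34 above and 20 below 0. For 51 of them the 95% confidence interval stayed within 1.25-fold in either direction. The exceptions were Usp12 (up to 0.43), Usp51 (down to -0.40) and Usp30 (up to 0.34). In 15 of the 62 genes the arrays of the 2 groups were fully separated. Of these, 14 were higher in shMKRN1 (22.6%, against 10.6% of all genes, or 14.1% in either direction): the 8 called genes and Usp22, Usp29, Usp14, Otud5, Otud7b and Usp6nl. That share was not compared among genes of like level. In the silent range lay 2 of the 62 genes, against 5932 of all 19937.

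Many of the 62 genes also had their lowest group value in the same arrays. Array shGFP 7 held the lowest control value for 39 of the 62 genes (62.9%), and it held the lowest control value for 32% of all genes. Array shMKRN1 8 was likewise the lowest of its group for 39 of the 62, and for 34.3% of all genes. These shares were not compared among genes of like level. Both arrays had the highest median over all probe sets in their group (7.24 and 7.20). Some members went the other way: Otud7a, Usp27x and Usp21, for example, had their highest control value in shGFP 7. The median deviation of the 62 genes from the group mean was -0.06 in shGFP 7 and -0.05 in shMKRN1 8, against 0.01 to 0.04 in the other 6 arrays. Over all genes it was 0.01 in shGFP 7 and -0.0008 in shMKRN1 8. The lowest value of the group fell in shGFP 1 for 29.1% of all genes and in shMKRN1 4 for 30.6%. The widest case was the histone protease gene Usp51, at 8.003, 7.83, 8.23 and 7.53 in shGFP and at 7.80, 7.83, 7.83 and 7.64 in shMKRN1. Its highest and lowest controls were shGFP 5 and shGFP 7, so its groups overlapped fully. The titles give shGFP 7 and shMKRN1 8 neighbouring numbers, and whether they were prepared together is not in the labels. Within groups the median SD of the 62 genes was 0.076, and that of all genes 0.10. Without both arrays the median difference of the 62 was 0.03.

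**Figure D4:**
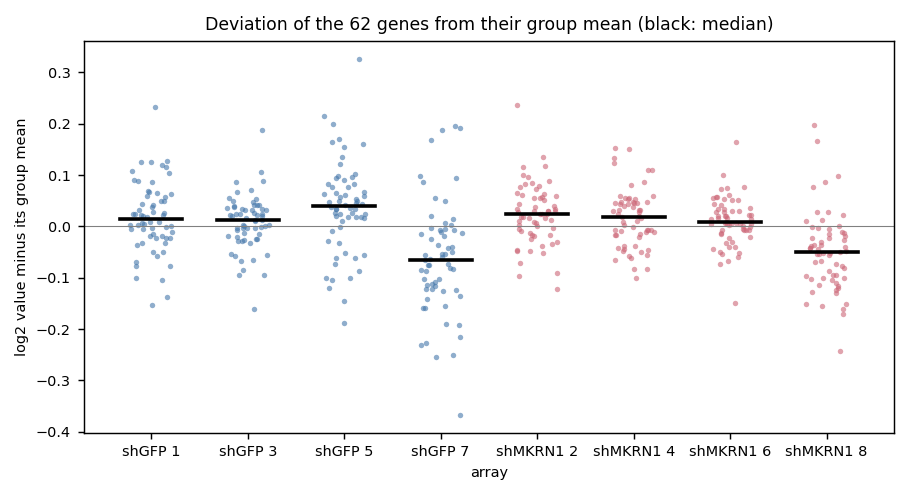
Deviation of each of the 62 genes from its group mean (log2), by array; each point is 1 gene and the black bar is the median. The medians of shGFP 7 (-0.06) and shMKRN1 8 (-0.05) lie below 0 and those of the other 6 arrays above it.

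Position was not used to choose the genes. The 3 called genes with the smallest p, Usp26, Usp11 and Otud6a, are all X-linked in the RefSeq gene table. Of 7 X-linked members 3 rose (Otud5, Usp9x, Usp27x and Usp51 did not pass), and of 54 on other chromosomes 5 rose (9.26%). Of 732 X-linked genes outside the families, 38 rose (5.19%) and 7 fell. Of 19062 genes outside the families and not X-linked, 683 rose (3.58%) and 159 fell. This split was made after the values were seen and was not tested. Of the 32 nearest measured protein-coding genes, 2 on each side of the 8 called genes, 1 rose (Metap2 beside Usp44, 0.28; limma adjusted p = 0.0298) and none fell, a share near the 3.66% and 0.838% of all genes. The neighbours of Usp26 (Mbnl3, Hs6st2, 1700080O16Rik and Gpc4) had differences of -0.01 to 0.10.

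The promoters of those 3 X-linked genes are printed because their transcripts rose with the smallest p-values of the families. Each is the 250 bases before the annotated start, from RefSeq on GRCm38.p6, read in the direction of transcription, with CCAAT (or ATTGG, its reverse complement) in capitals. They lie at chrX:51801234-51801483 on the minus strand (Usp26), chrX:20703659-20703908 on the plus strand (Usp11) and chrX:100428658-100428907 on the plus strand (Otud6a).

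Usp26: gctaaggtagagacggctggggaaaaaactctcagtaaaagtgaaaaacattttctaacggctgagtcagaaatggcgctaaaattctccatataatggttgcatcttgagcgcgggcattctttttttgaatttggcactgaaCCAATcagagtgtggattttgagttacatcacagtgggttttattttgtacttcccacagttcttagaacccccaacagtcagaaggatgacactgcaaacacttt

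Usp11: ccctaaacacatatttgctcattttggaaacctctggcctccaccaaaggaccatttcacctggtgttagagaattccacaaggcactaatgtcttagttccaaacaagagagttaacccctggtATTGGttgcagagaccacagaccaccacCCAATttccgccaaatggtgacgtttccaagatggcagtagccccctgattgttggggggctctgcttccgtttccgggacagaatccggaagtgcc

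Otud6a: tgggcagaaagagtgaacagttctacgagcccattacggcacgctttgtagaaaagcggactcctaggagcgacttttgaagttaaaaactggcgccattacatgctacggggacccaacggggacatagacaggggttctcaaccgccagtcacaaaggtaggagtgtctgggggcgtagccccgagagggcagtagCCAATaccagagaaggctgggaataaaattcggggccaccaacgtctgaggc

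Promoter windows were found for 48 of the 62 genes (52 windows), and Usp44 is among those without one. The Usp26 window held 5 CpG dinucleotides, Usp11 also 5 and Otud6a 13, against a median of 22.5 over the windows of the 62 genes and 6 over all 32851 windows. Taking for each gene its window with the most CpG, 2 of the 48 genes, Usp50 and Usp54, had fewer than Usp26 and Usp11. The box CCAAT was searched on both strands, with CACGTG and TATAAA beside it. CCAAT occurred in 6 of the 9 windows of the called genes (66.7%, in Usp26, Usp11, Otud6a, Usp3 and Otub2), in 23.1% of the windows of the 62 and in 33.8% of all windows. Otub2 had several of those windows, and the ones that start at chr12:103388431 and chr12:103388432 hold the same match. By gene it occurred in 5 of 7 called genes, in 10 of the 48 and in 10133 of all 27025. Counted from the start, the first base of the match lay at -106 in Usp26, at -125 and -97 in Usp11 and at -52 in Otud6a. CACGTG and TATAAA occurred in no window of a called gene, so no marked match overlaps them, and in 11.5% and 3.85% of the windows of the 62 and in 6.02% and 12.4% of all. These words were chosen after the values were seen and are a description of the letters.

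Other genes of the ubiquitin system were read from lists outside the name rule. Of 26 deubiquitinases outside the name rule (such as Bap1, Cyld, Tnfaip3, Atxn3 and Psmd14), none passed, where 4.49% of all genes did. Their median difference was 0.03. At an unadjusted p under 0.05, 5 of the 26 were higher and none lower, where 13.7% of all genes were higher and 5.78% lower. Of 17 cofactor genes (median difference -0.01), none rose and 2 fell, where 3.66% of all genes rose and 0.838% fell. Those 2 were Asxl2, a partner of the histone protease BAP1 (-0.33, SE 0.057, limma adjusted p = 0.0134), and Atxn7l1, a relative of a SAGA subunit (-0.21, SE 0.043, limma adjusted p = 0.0241). Asxl2 stood at 11.02, 10.98, 11.12 and 10.91 in shGFP and at 10.69, 10.72, 10.64 and 10.67 in shMKRN1, without overlap. Its call was lost without shMKRN1 6 (0.0551), and that of Atxn7l1 without shGFP 1 or 3 or shMKRN1 2, 4 or 6 (up to 0.0913) with median centring (0.0576), with the mean of probe sets (0.154, at a smaller difference of -0.14) and where every probe set was tested (0.0506). Among the cofactor genes that did not pass, Wdr48, Wdr20, Gmps and Eny2 lay between -0.06 and 0.02.

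Of 16 proteases of ubiquitin-like proteins (median difference -0.0021), 1 rose (6.25%, against 3.66% of all genes) and none fell. This was Atg4d, which cleaves the ATG8 proteins of autophagy and rose by 0.32 (SE 0.061, limma adjusted p = 0.0204). Its call was lost without shGFP 1 or 3 or without shMKRN1 2, 4 or 6 (highest adjusted p = 0.0756) and where every probe set was tested (0.0534). Of the ubiquitin genes and activating enzymes only Uba6 (-0.22; adjusted p = 0.102) and Uba1y were measured by probe sets of their own. Uba1y, a Y-linked activating enzyme gene, rose by 0.50 (SE 0.067; adjusted p = 0.00445), from 8.05, 7.97, 7.87 and 7.85 in shGFP to 8.55, 8.36, 8.47 and 8.36 in shMKRN1, and kept its call without each array in turn. With the mean of its probe sets the difference was 0.33 (adjusted p = 0.0168). Whether its probes also detect the X-linked copy Uba1 was not tested.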

How the data were processed

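Total RNA of 4 shGFP and 4 shMKRN1 samples was measured on Affymetrix arrays, and samples were grouped by their titles. The deposited table holds log2 values for 34760 probe sets, which per the submitters' processing notes come from RMA (version not given in the sources used here). Because RMA gives arrays a common distribution, a shift shared by most genes cannot be seen, and it compresses the changes of dim genes. Array medians were 7.14 to 7.24.

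Probe sets with exactly 1 symbol were kept (21640), with the brightest per symbol by mean, which gave 19937 genes. Of the 62 genes, 3 had several probe sets. Differences were fitted with limma 3.58.1 in R 4.3.3 (lmFit, eBayes; two-sided; Benjamini-Hochberg over all genes, threshold 0.05), with no filter and no covariate. The script was tested on simulated data. Members and lists were chosen with earlier results of these data known, so no p was adjusted over a list alone and no list was tested. Named were Mkrn1, Usp26, every called member, the 6 next by p, the 3 brightest and 3 dimmest, in each role the member with the smallest p and that with the largest difference, and up to 6 called genes of each pathway list. Other members are given by their values as a description; those outside this rule that are singled out (Usp12, Usp37, Usp51, Uba6, Metap2 and the markers) were chosen after their values were seen. Correlations with Usp26 over the 8 arrays, planned beforehand, are not given, since the arrays form 2 groups. Genes outside the 62 that were picked by them are not described but entered the outlier check. RefSeq tables of GRCm38.p6 gave chromosomes, neighbours and promoters, and 61 of the 62 genes matched by Entrez number. Alternatives were quantile normalization, median centring, a level filter, the mean of probe sets, every probe set tested, array weights, trend and robust eBayes, and arrays left out.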

Additional observations from a re-analysis of the deposited data

Results flagged for a closer look

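In 2 of 62 groups of 4 values, from 31 genes, 1 array stood far from the other 3. Chance gives about 1 in 20 by this criterion (Dixon's, at the 95% level). The 31 genes include Mfsd12, Car4, Retreg3, Ephb3 and 1700018B24Rik. Those were picked for the highest correlation with Usp26 over the same 8 arrays, so the set is not a neutral one. For Usp14, array shGFP 5 was the highest control at 11.12, with the next at 11.08 and the lowest at 11.07. For Usp10, array shMKRN1 6 was the highest of its group at 12.12, with the next at 12.10 and the lowest at 12.09. Both gaps are small on the log2 scale, and neither gene passed the limma test.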

How the results depend on the processing

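Usp26, Usp11 and Usp44 rose under all 16 alternatives, and Otud6a under the 15 in which it was tested; the filter on level removed it. Usp3, Otub2, Uchl1 and Usp47 lost their calls when every probe set was tested and under some fits without 1 array. With every probe set tested, 4 of the 62 genes were called (6.45%, beside 1.9% of all genes). With array weights 13 were called, 12 higher and 1 lower (Otud4), which is 21% beside 13.8% of all genes. Without 1 array the count was 4 to 8, beside 1.55% to 4.27% of all genes. Over all genes, 896 calls became 1595 among the 9968 genes above the median level. They became 378 with every probe set tested, 2757 with array weights, 1549 with trend and robust settings, and 309 to 852 without 1 array. The causes were not tested, except that the first 2 change the number of features tested. The difference of Usp10 was 0.00055 with median centring, of opposite sign, and that of Usp46os2 ran from -0.10 to 0.02 without 1 array, positive without shGFP 7 (0.0205). The median difference of the 62 genes ran from 0.03 to 0.08 over all alternatives, and that of all genes from -0.0019 to 0.04. No paired analysis was run, since the groups share no replicate number. Whether neighbouring numbers (7 and 8, for example) mark a shared preparation is not in the labels, and no block over them was fitted. Usp29 lay in the range of silent genes in both groups and Usp50 at its edge, so signal over background limits what their differences show.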

Other observations

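Probe sets outside the rule gave further values. The one shared by Usp49 and Med20 had a difference of 0.13 (SE 0.084), from 7.68 in shGFP to 7.81 in shMKRN1. For Usp24, Usp31 and Usp54 the dimmer probe sets had differences of 0.15 (SE 0.058), 0.09 (SE 0.078) and 0.12 (SE 0.058), against 0.05, 0.01 and 0.04 for the brighter ones that were kept.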
